A study of Mus musculus with 6 samples.

Results

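Collagens are the main structural proteins of the extracellular matrix, and every collagen molecule is a rope-like helix wound from alpha chains that are each encoded by a gene of their own. The genes described here are the collagen chain genes of 4T1 cells, chosen by their symbol alone (Col, a type number, the letter a and a chain number). There were 44 of them among the 24421 genes of the deposited table, and 12 reached at least 0.5 RPKM (reads per kilobase, divided by the depth of the library) in 3 or more of the 6 libraries, the limit for being called expressed. The other 32 stayed under it. Of all 24421 genes, 11386 reached the limit. 4T1 is a mouse mammary adenocarcinoma line of epithelial cells grown in culture. Messenger RNA was sequenced from 4T1 cells with a control short hairpin RNA (shCTL, 3 libraries) and from 4T1 cells with a hairpin directed against HSF1, the transcription factor of the heat shock response (shHSF1, 3 libraries). The labels give no other treatment or allele, no hairpin sequence, no count of hairpins or clones, and do not say whether replicates were separate cultures, so each p-value rests on the spread among the 6 libraries, and that spread may be technical. In such bulk samples, fewer cells that make a chain and less of its RNA per cell cannot be told apart.

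The classes of collagen differ in what they build. Fibrillar chains (types I, II, III, V, XI, XXIV and XXVII) form the long cross-striated fibrils of connective tissue, which fibroblasts make in the largest amounts. Type IV chains form the flexible sheet of the basement membrane on which epithelial cells rest, and types VI, VII, VIII, XV and XVIII lie in or next to that membrane. In the cell, chains are hydroxylated, folded and bound by the chaperone HSP47, the product of Serpinh1, a textbook target of HSF1. After secretion their propeptides are removed, and the molecules are cross-linked and met by receptors.

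Assigned reads ran from 23750025 to 36903175 per library, so that 3 reads on a chain of 8 kb stood for 0.0102 to 0.0158 RPKM. These floors cover counting error only. The first replicate of each group lay far from the other 4 libraries, at −47.0 and −38.5 on a first principal component that carried 53.8% of the variance, against 13.4 to 30.7. Hsf1 itself had 18.4, 20.3 and 20.1 RPKM in shCTL, against 13.8 and 15.4 RPKM in shHSF1 replicates 2 and 3. In the library labelled shHSF1 replicate 1 it stood at 23.2 RPKM, above every control, so directions that rest on that library rest on its label. The 6 libraries together gave a log2 difference of −0.20 (SE 0.21, limma adjusted p = 0.810), and replicates 2 and 3 alone gave −0.46 (SE 0.10, limma adjusted p = 0.0433). That subset leaves out the shHSF1 library with the high Hsf1 value, so its direction was known before the fit. In the same subset 11.1% of all genes passed. For the cell type, the 7 epithelial markers summed to 2436, 1967 and 1675 RPKM in shCTL, compared with 1361, 1488 and 1261 RPKM in shHSF1, most of it the keratins Krt8 and Krt18, while Krt5 was at 0 throughout. These sums did not overlap between the groups, but the markers did not move together. Epcam, an epithelial adhesion protein, had 14.7, 13.8 and 12.7 RPKM in shCTL against 35.9, 33.3 and 28.3 RPKM in shHSF1. This was the other way from Krt8 and Krt18 (log2 difference 1.21, SE 0.14, limma adjusted p = 0.0930). Krt19 had means of 12.6 RPKM in shCTL and 13.8 RPKM in shHSF1, and Krt14 0.913 and 0.591 RPKM. Cdh1 stood at 1.61, 0.458 and 0.555 times its same-numbered control. The part of these markers in the collagen differences was not tested. Of 6 fibroblast markers, Lum and Thy1 were at 0 in all libraries, and Dcn, Fap and Pdgfrb stayed under the limit. Pdgfra, a growth factor receptor, was the exception, at 9.93 to 37.3 RPKM. The summed fibroblast markers stood at 37.8, 13.5 and 10.1 RPKM in shCTL, compared with 19.8, 22.5 and 15.3 RPKM in shHSF1, and their part in the collagen levels was not tested. None of the 3 endothelial and 4 leukocyte markers passed the limit. Their sums reached 0.143 RPKM at most for the endothelial markers. The leukocyte sum was 0.0845 RPKM at most in shCTL and 0.137, 0.876 and 1.08 RPKM in shHSF1, where Lyz2 held 0.795 and 1.02 RPKM of replicates 2 and 3.

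The 2 collagen genes with the highest mean over the 6 libraries, Col4a1 and Col4a2, lie head to head on chromosome 8. Col4a1 spans 11198423 to 11312826 on the minus strand and Col4a2 spans 11312829 to 11449287 on the plus strand (mm10), so that only 2 bases lie between their annotated starts in the deposited table. Their promoter windows are shown because both genes read outward from the same stretch of DNA and both stood higher in all shHSF1 libraries. Each window holds 250 bases before and 50 after the RefSeq start (build GRCm38.p6, the build called mm10), 5′ to 3′ on the strand of its gene. For Col4a2 the RefSeq start lies upstream of the deposited start and within Col4a1, so that by the RefSeq starts the 2 genes overlap. The windows overlap by 78 bases, which are the last 78 of each, read in opposite directions. Capitals mark every CCAAT (bound by the factor NF-Y) and every GC box (GGGCGG, bound by Sp factors), found on either strand.

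Col4a1 (chr8:11312777-11313076, minus strand): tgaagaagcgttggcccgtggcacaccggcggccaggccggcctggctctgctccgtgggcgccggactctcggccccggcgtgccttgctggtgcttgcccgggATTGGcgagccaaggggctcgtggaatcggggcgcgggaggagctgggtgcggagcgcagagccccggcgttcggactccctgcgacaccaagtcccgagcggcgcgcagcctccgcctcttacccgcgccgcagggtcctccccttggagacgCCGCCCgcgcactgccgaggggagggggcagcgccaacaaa

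Col4a2 (chr8:11312555-11312854, plus strand): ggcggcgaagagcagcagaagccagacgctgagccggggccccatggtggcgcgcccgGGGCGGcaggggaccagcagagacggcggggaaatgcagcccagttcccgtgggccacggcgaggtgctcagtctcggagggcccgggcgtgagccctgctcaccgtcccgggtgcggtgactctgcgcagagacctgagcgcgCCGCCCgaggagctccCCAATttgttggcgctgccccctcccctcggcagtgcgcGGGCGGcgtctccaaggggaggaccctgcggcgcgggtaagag

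The Col4a1 window held 1 CCAAT and 1 GC box, and the Col4a2 window 1 CCAAT and 3 GC boxes. In the Col4a2 window 1 of the GC boxes, at position 8 after the RefSeq start, lies in the shared stretch. It is the same box as the 1 in the Col4a1 window. Of all 32851 RefSeq promoter windows of this length, 37.4% held a CCAAT and 35.7% a GC box. Of the 12 expressed chains 11 had a window. Of these 11 genes 6 had a CCAAT and 9 a GC box, with 1 box counted for both Col4a1 and Col4a2. The shares are over windows of all genes, expressed or not. They were not computed for expressed genes alone, so the counts have no like comparison.

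HSF1 binds heat shock elements, inverted repeats of GAA. An element of 3 units, GAANNTTCNNGAA on either strand, was in 0.603% of all windows and in none of those of the 11 genes. The shorter repeats of 2 units, GAANNTTC and TTCNNGAA, which are parts of the longer element, were in 7.86% and 8.52% of all windows. Of the 11 genes only Col4a5 held one, GAANNTTC at position −137, shown here in capitals. The Serpinh1 window held none of these letters either, which says nothing of elements farther away. Only exact letters were searched, so a window without them may still hold an element with other letters.

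Col4a5 (chrX:141475169-141475468, plus strand): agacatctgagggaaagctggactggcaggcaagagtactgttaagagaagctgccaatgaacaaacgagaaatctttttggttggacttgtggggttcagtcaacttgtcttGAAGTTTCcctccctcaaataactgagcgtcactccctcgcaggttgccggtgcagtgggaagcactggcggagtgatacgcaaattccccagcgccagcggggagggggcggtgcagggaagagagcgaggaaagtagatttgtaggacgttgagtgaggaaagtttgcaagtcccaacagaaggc

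Type IV chains held 47.1% to 55.7% of the summed collagen RPKM of a library. Col4a1, which encodes the alpha1 chain of the common basement membrane network, stood at 139, 147 and 166 RPKM in shCTL, compared with 184, 228 and 199 RPKM in shHSF1 (library values are in the order of replicates 1 to 3). Every shHSF1 library was above every control. Its means were 151 ± 14.0 and 204 ± 22.2 RPKM (SD, n = 3 each), and the same-numbered ratios were 1.32, 1.55 and 1.198. On the scale of log2(RPKM + 0.5), used for all log2 differences here (shHSF1 minus shCTL), Col4a1 differed by 0.43 (SE 0.14, limma adjusted p = 0.320 over all genes tested).

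Col4a2 encodes the alpha2 chain, which joins alpha1 in the same molecule. It stood at 89.5, 88.2 and 93.6 RPKM in shCTL, compared with 160, 141 and 125 RPKM in shHSF1. The controls lay within a narrow band and all shHSF1 libraries above it, the one labelled shHSF1 replicate 1 highest. The means were 90.5 ± 2.79 and 142 ± 17.6 RPKM (SD, n = 3 each), with same-numbered ratios of 1.79, 1.59 and 1.34 and a log2 difference of 0.64 (SE 0.13, limma adjusted p = 0.175). Among the 12 expressed chains it had the smallest p, and it did not pass the threshold of 0.05 over all genes. Without both replicate 1 libraries it passed (log2 difference 0.54, SE 0.10, limma adjusted p = 0.0302), and Col4a1 did not (0.45, SE 0.11, limma adjusted p = 0.0565). Per length of gene, Col4a1 exceeded Col4a2 by 1.55, 1.66 and 1.77 times in shCTL and by 1.62 and 1.59 times in shHSF1 replicates 2 and 3. In the library labelled shHSF1 replicate 1 it did so by 1.15 times, the lowest of the 6.

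Col4a5 and Col4a6, which encode chains of a basement membrane network found under some epithelia, also lie head to head, on the X chromosome with 1342 bases between their starts. Col4a5 (141475419 to 141689235, plus strand) stood at 16.5, 5.49 and 4.67 RPKM in shCTL, compared with 23.5, 9.71 and 6.67 RPKM in shHSF1. It was high in both replicate 1 libraries and low in the others, so the groups overlapped, yet each shHSF1 library was above its same-numbered control, by 1.42, 1.77 and 1.43 times. Over 6 libraries it differed by 0.58 on the log2 scale (SE 0.60, limma adjusted p = 0.803). Leaving out 1 library moved this value from 0.083 (without shHSF1 replicate 1) to 1.12 (without shCTL replicate 1). With the replicate number as a block the SE was 0.12 (limma adjusted p = 0.102). Col4a6 stayed under the limit and was likewise highest in both replicate 1 libraries, at 0.617, 0.215 and 0.161 RPKM in shCTL and 0.602, 0.289 and 0.241 RPKM in shHSF1. Col4a3 and Col4a4, which join alpha5 in the network of the kidney glomerulus, had between 0 and 2 reads in every library.

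**Figure D1:**
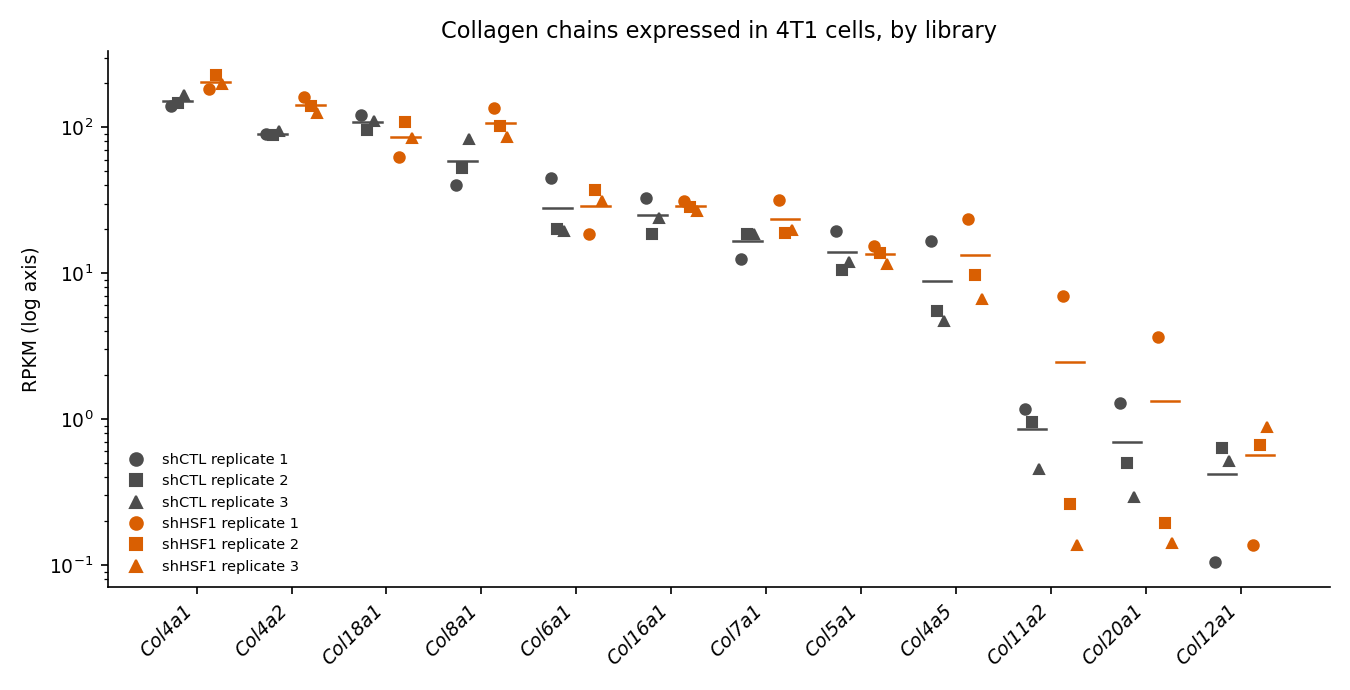
RPKM on a log axis of the 12 expressed collagen chains in each of the 6 libraries (grey shCTL, orange shHSF1, symbols for replicates 1 to 3, bars for group means). Col4a1 and Col4a2 are the highest by the mean of all 6 libraries, without overlap between the groups, and Col11a2 and Col20a1 are highest in the library labelled shHSF1 replicate 1, at 7.01 and 3.63 RPKM.

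Fibrillar chains were scarce. Of 11 fibrillar genes 2 passed the limit, against 3 of 6 type IV genes, beside 11386 of all 24421 genes. Col5a1 encodes a chain of type V collagen, which starts and limits the growth of fibrils. It stood at 19.6, 10.5 and 11.9 RPKM in shCTL, compared with 15.3, 13.6 and 11.6 RPKM in shHSF1, and the groups overlapped throughout. Its log2 difference was −0.0045 (SE 0.25, limma adjusted p = 0.997). The partner chains Col5a2 and Col5a3 had between 0 and 6 reads per library.

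Col11a2, a chain of the type XI collagen of cartilage, passed the limit through 3 libraries. It stood at 1.17, 0.954 and 0.453 RPKM in shCTL, at 7.01 RPKM in the library labelled shHSF1 replicate 1, and at 0.261 and 0.137 RPKM in shHSF1 replicates 2 and 3. It was thus 5.97 times its control in the first pair, and 0.274 and 0.302 times in the others. Col20a1, a minor collagen that associates with fibrils, had the same pattern: 1.28, 0.503 and 0.290 RPKM in shCTL against 3.63, 0.194 and 0.142 RPKM. For both genes the direction over the 6 libraries (log2 differences 0.22 and 0.13, SE 0.93 and 0.76, limma adjusted p = 0.964 and 0.974) came from that 1 library. Without it the differences were −0.93 and −0.75 (limma adjusted p = 0.276 and 0.426).

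The classic fibril genes were all under the limit. Col1a1, which with Col1a2 makes the type I collagen of bone, skin and scar, had 8, 7 and 5 reads in shCTL and 30, 61 and 50 reads in shHSF1, or 0.0691, 0.0627 and 0.0392 RPKM against 0.261, 0.352 and 0.371 RPKM. All 3 shHSF1 libraries were above all controls, and the ratio of the means was 5.75, at a level under 0.5 RPKM in every library. When all genes with a read were tested, its log2 difference was 0.57 (SE 0.066, limma adjusted p = 0.0784). Col1a2 had 0, 0 and 3 reads in shCTL and 2, 9 and 14 in shHSF1. Col2a1, the type II collagen of cartilage, had 0, 1 and 2 reads in shCTL and 9, 69 and 88 in shHSF1. These also separated by group, but the fit over all genes with a read did not call Col2a1 (log2 difference 0.68, SE 0.23, limma adjusted p = 0.368). Col3a1, the type III collagen that accompanies type I, and Col11a1 were at 0 reads in all 6 libraries, which allows up to 3 reads each. Col27a1 had 26 to 64 reads and Col24a1 0 to 6.

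**Figure D2:**
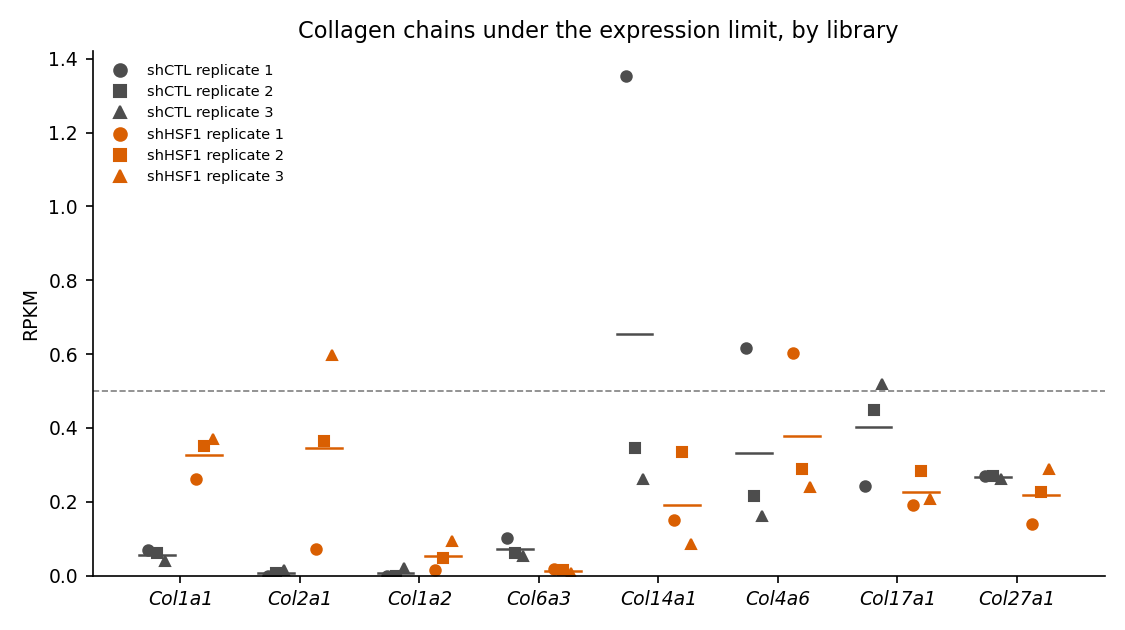
RPKM of 8 collagen chains under the expression limit (dashed line at 0.5 RPKM) in each library, with bars for group means. Col1a1 stands at 0.0392 to 0.0691 RPKM in shCTL, compared with 0.261 to 0.371 RPKM in shHSF1, while Col14a1 is above the line in shCTL replicate 1 alone, at 1.35 RPKM.

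Set side by side, the type IV genes summed to 246, 241 and 265 RPKM in shCTL and to 369, 378 and 331 RPKM in shHSF1. The fibrillar genes summed to 21.1, 11.8 and 12.7 RPKM and to 22.8, 14.9 and 13.2 RPKM. The type IV sums did not overlap between the groups and the fibrillar sums did. Within same-numbered pairs, however, the sums of both classes were higher in shHSF1. The ratios were 1.5004, 1.57 and 1.25 for type IV and 1.08, 1.26 and 1.04 for the fibrillar genes. The data do not tell replicates 2 and 3 apart as pairs, so these pairs rest on the numbers in the titles. By those numbers Col5a1, the most abundant fibrillar chain, was higher in the replicate 2 pair only. With replicates 2 and 3 matched the other way, Col5a1 went from 10.5 to 11.6 and from 11.9 to 13.6 RPKM. In the replicate 1 pair it fell from 19.6 to 15.3 RPKM, while Col11a2 rose from 1.17 to 7.01 RPKM. In the replicate 3 pair Col5a1 went from 11.9 to 11.6 RPKM and Col11a2 from 0.453 to 0.137 RPKM. There the low chains Col1a1 and Col2a1 rose, from 0.0392 to 0.371 and from 0.0143 to 0.598 RPKM. The sum of all 44 genes was higher by 1.295, 1.5006 and 1.11 times. The difference between the classes was not tested. Type IV chains took 49.6 ± 2.58% of the summed collagen RPKM in shCTL and 55.0 ± 0.636% in shHSF1 (SD, n = 3 each), and fibrillar chains took 2.996 ± 0.921% and 2.58 ± 0.687%. A sum over chosen genes was given no p. The median log2 difference was 0.58 over the 3 expressed type IV chains (the value of Col4a5) and 0.11 over the 2 expressed fibrillar chains, beside 0.05 over all 11386 genes tested. Fibrillar minus type IV was therefore −0.47, but it was 0.41 in the replicate 1 pair and −0.96 and −0.72 in the pairs of replicates 2 and 3. With all chains that had a read, the medians were 0.033 over 9 fibrillar and 0.26 over 6 type IV chains, with 7 and 6 of them above 0. Among all 17022 genes with a read the median was 0.022, and 9985 were above 0. This scale understates the change of chains far under 0.5 RPKM. The fibrillar median was the value of Col5a2, which had 1 to 6 reads per library and a ratio of the means of 2.92. In type IV, Col4a3 differed by 0.014 at a ratio of 4.48. The medians over all chains with a read thus do not order the classes by ratio.

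**Figure D3:**
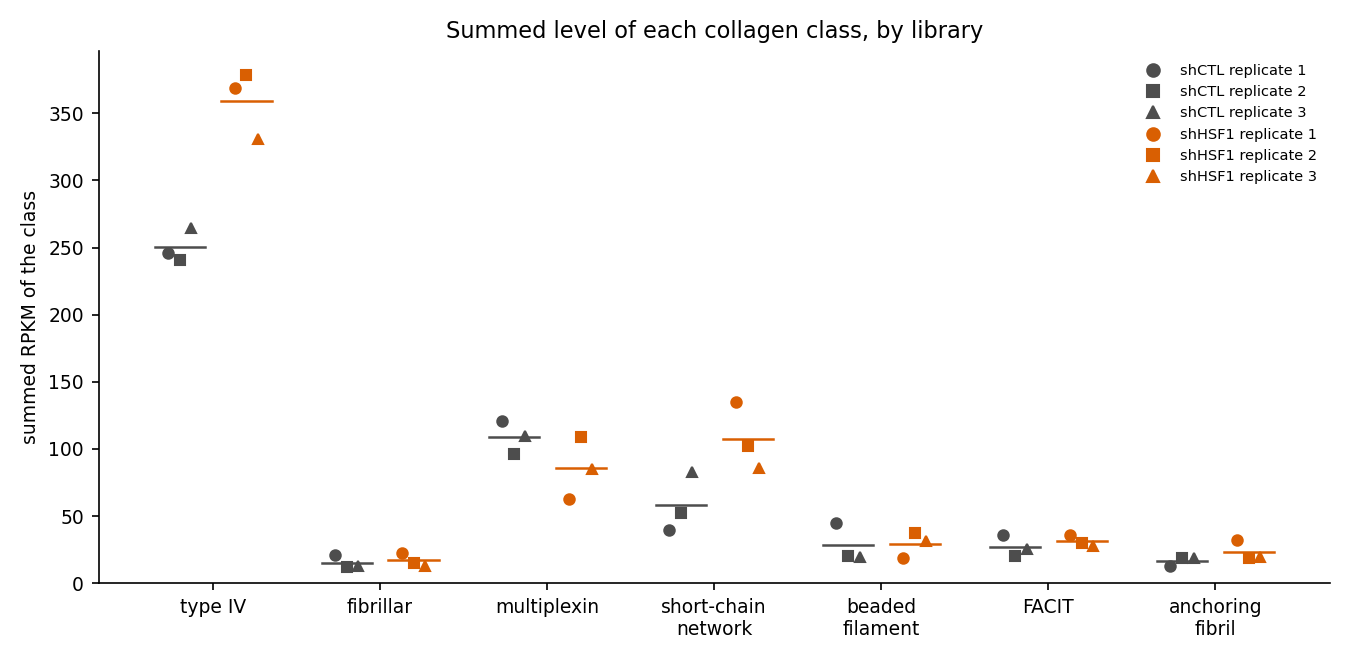
Summed RPKM of the genes of 7 collagen classes in each library, with bars for group means. The type IV sum stands at 241 to 265 RPKM in shCTL and 331 to 378 RPKM in shHSF1, and the fibrillar sum overlaps between the groups at 11.8 to 22.8 RPKM.

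Beside type IV, basement membrane neighbours made up most of the remaining level. Col18a1 (chromosome 10, 77052179 to 77166530, minus strand) encodes a multiplexin of basement membranes whose C-terminal fragment is endostatin. It stood at 121, 95.8 and 110 RPKM in shCTL, compared with 62.8, 109 and 84.7 RPKM in shHSF1. The groups overlapped, and the lowest value was that of the library labelled shHSF1 replicate 1 (log2 difference −0.37, SE 0.22, limma adjusted p = 0.588). With replicates 2 and 3 alone it became −0.093 (SE 0.14, limma adjusted p = 0.689). The other multiplexin, Col15a1, had 8 to 17 reads per library.

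Col8a1 (chromosome 16, 57624256 to 57754737, minus strand) encodes a short-chain collagen that forms hexagonal lattices under endothelium and in remodelling tissue. It stood at 39.9, 52.4 and 82.6 RPKM in shCTL, compared with 135, 102 and 85.7 RPKM in shHSF1. The groups did not overlap, but shCTL replicate 3 and shHSF1 replicate 3 were 1.04 times apart, and the replicate 1 pair 3.38 times. All 6 libraries gave a log2 difference of 0.92 (SE 0.30, limma adjusted p = 0.320), and 0.51 without both replicate 1 libraries (SE 0.22, limma adjusted p = 0.172). Col8a2, which encodes the partner chain, had 3 to 15 reads.

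Col7a1 (chromosome 9, 108953745 to 108984875, plus strand) encodes the collagen of the anchoring fibrils that tie the epidermal basement membrane to the dermis. It stood at 12.5, 18.6 and 18.6 RPKM in shCTL, at 31.9 RPKM in the library labelled shHSF1 replicate 1 and at 18.7 and 19.8 RPKM in shHSF1 replicates 2 and 3. The groups did not overlap, yet the separation of replicates 2 and 3 was small (ratios of 1.00 and 1.06, against 2.54 in the replicate 1 pair). Its log2 difference was 0.47 with all libraries (SE 0.26, limma adjusted p = 0.562), and 0.046 (SE 0.090, limma adjusted p = 0.755) without both replicate 1 libraries.

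Col6a1 (chromosome 10, 76708792 to 76726044, minus strand) encodes a chain of the beaded filaments of type VI collagen, which are built from 3 different chains. It stood at 44.7, 20.1 and 19.5 RPKM in shCTL, compared with 18.5, 37.1 and 31.3 RPKM in shHSF1. The replicate 1 pair went the other way from the rest: 0.413 times its control, against 1.84 and 1.61 times in replicates 2 and 3. All 6 libraries gave a log2 difference of 0.095 (SE 0.39, limma adjusted p = 0.963). The 4 libraries of replicates 2 and 3 gave 0.77 (SE 0.11, limma adjusted p = 0.0196), past the threshold. The partner chains Col6a2 and Col6a3 had 2 to 37 and 2 to 27 reads. Col6a3 had 27, 16 and 16 reads in shCTL and 5, 6 and 2 in shHSF1, without overlap between the groups.

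Among the FACIT collagens, which sit on the surface of fibrils, Col16a1 (chromosome 4, 130047840 to 130099277, plus strand) was the abundant member. It stood at 33.0, 18.6 and 24.0 RPKM in shCTL, compared with 31.0, 28.5 and 26.7 RPKM in shHSF1, and the groups overlapped (log2 difference 0.22, SE 0.22, limma adjusted p = 0.786). Col12a1, which binds type I fibrils, stood at 0.104, 0.636 and 0.518 RPKM in shCTL, compared with 0.136, 0.668 and 0.881 RPKM in shHSF1, low in both replicate 1 libraries (log2 difference 0.18, SE 0.40, limma adjusted p = 0.917). Col14a1 passed 0.5 RPKM in shCTL replicate 1 alone. Of the 4 transmembrane collagens none was expressed, and Col17a1, the hemidesmosome collagen of basal epithelial cells, was the highest with 0.192 to 0.519 RPKM.

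The remaining chains under the limit held few or no reads. Col9a3 had 13 to 47 reads, and 229 bases of its exons overlap those of Tcfl5 on the opposite strand. The sources used here do not give the strand setting. Col6a4, Col22a1, Col9a1, Col19a1, Col13a1, Col28a1, Col23a1 and Col6a5 had at most 8 reads in any library. Of the 25 low chains with a read, the groups did not overlap in 5 that were higher in shHSF1 (Col1a1, Col2a1, Col4a3, Col5a2 and Col6a4), beside 7.79% of the 5636 low genes with a read. They did not overlap in 1 that was lower (Col6a3), beside 2.71%. Col4a3 had 0, 0 and 1 reads in shCTL against 1, 2 and 2 in shHSF1, all under the floor of 3 reads, and the controls of Col5a2 and Col6a4 had at most 1 read. Besides Col3a1 and Col11a1, Col10a1, Col26a1, Col25a1, Col6a6 and Col9a2 were at 0 in every library, 7 of the 44 in all.

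Over the 12 expressed chains, none passed a limma adjusted p of 0.05, beside 3 of the 11386 genes tested (0.0263%). With the replicate number as a block none of the 12 passed, beside 0.176% of all genes. At an unadjusted limma p under 0.05 there were 3 (Col4a1, Col4a2 and Col8a1), all higher in shHSF1, beside 11.4% of all genes. Groups did not overlap in 4 chains, all higher in shHSF1 (Col4a1, Col4a2, Col8a1 and Col7a1), beside 12.9% of all genes, and in 0 chains lower, beside 7.16%. The exact permutation p of each of the 4 (two-sided) was 0.1, the smallest that 3 against 3 libraries allow. Groups without overlap always give this value, so it adds nothing to the count of the 4. Without both replicate 1 libraries 2 passed (Col4a2 and Col6a1, both higher), beside 11.1% of all genes, a share near 2 of 12. The median log2 difference of the 12 was 0.22, with 10 above 0, beside a median of 0.05 and 6500 above 0 among the 11386 genes tested.

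**Figure D4:**
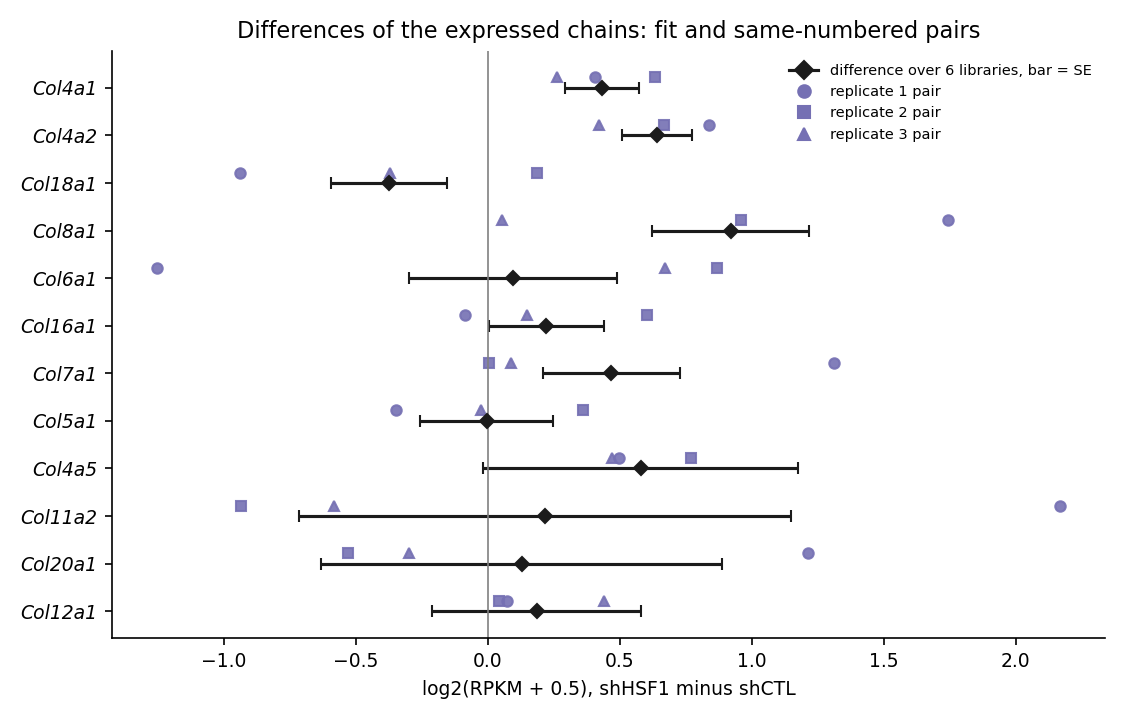
Log2 difference (shHSF1 minus shCTL) of the 12 expressed chains over 6 libraries, with bars for its standard error, and the difference within each same-numbered pair. All 3 pairs lie above 0 in Col4a1, Col4a2, Col4a5, Col7a1, Col8a1 and Col12a1. Some of these lie close to 0, as in Col7a1 (0.0052), Col12a1 (0.040) and Col8a1 (0.053). The share of all genes with 3 pairs above 0 was not computed. The replicate 1 pair lies far from the other pairs in Col11a2 (2.17), Col20a1 (1.21), Col7a1 (1.31) and Col6a1 (−1.25).

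The genes that act on collagen chains were also read from the same fit. Of 67 such genes with a row, 44 passed the limit and were tested, and none passed over all genes in either direction. Of the 44, 29 had a log2 difference above 0, beside 6500 of all 11386 genes tested. Their median was 0.12, beside 0.05 over all genes. At an unadjusted limma p under 0.05 there were 4 higher and 3 lower, beside 11.4% of all genes (897 higher and 399 lower), a share near 7 of 44. Without both replicate 1 libraries 10 were called higher and 3 lower, where 11.1% of all genes were called.

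Serpinh1 (HSP47), the collagen chaperone, stood at 166, 214 and 234 RPKM in shCTL, compared with 144, 239 and 240 RPKM in shHSF1. It was low in both replicate 1 libraries, and the groups overlapped (log2 difference −0.0018, SE 0.25, limma adjusted p = 0.998). Replicates 2 and 3 alone gave 0.099 (SE 0.090, limma adjusted p = 0.480). In the list of folding and export 9 genes were tested, 5 of them above 0 (median 0.019). Sec24d, a coat protein of the vesicles that carry procollagen, stood at 22.0 ± 3.22 RPKM in shCTL against 28.6 ± 4.34 in shHSF1 (SD, n = 3 each). Fkbp7, a prolyl isomerase, stood at 6.85 ± 3.54 and 8.96 ± 1.02 RPKM. Mia3 (TANGO1), which loads procollagen for export, was lower in shHSF1 without overlap, at 44.5 ± 5.00 and 38.6 ± 0.381 RPKM. Of these Sec24d and Fkbp7 passed without both replicate 1 libraries, with log2 differences of 0.59 and 0.89 (limma adjusted p = 0.0305 and 0.0165).

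Of 12 tested genes of hydroxylation and glycosylation 10 had a log2 difference above 0 (median 0.30), beside 6500 of all 11386 genes tested. P3h2, a prolyl 3-hydroxylase whose known substrates include type IV collagen, stood at 0.397, 0.656 and 0.786 RPKM in shCTL, compared with 1.44, 3.13 and 2.89 RPKM in shHSF1. Its groups did not overlap (log2 difference 1.39, SE 0.31, limma adjusted p = 0.186). P4hb, the protein disulfide isomerase that is also the beta subunit of prolyl 4-hydroxylase, stood at 217 ± 10.98 and 295 ± 21.5 RPKM, without overlap (log2 difference 0.44, SE 0.12, limma adjusted p = 0.261). Ppib, the cyclophilin that forms a prolyl 3-hydroxylase complex with the products of P3h1 and Crtap, stood the other way, at 363 ± 25.7 and 250 ± 56.8 RPKM. Its groups did not overlap either (log2 difference −0.56, SE 0.20, limma adjusted p = 0.358). With replicates 2 and 3 alone 5 of the 12 passed, all higher (P3h1, P3h2, P4ha2, P4hb and Plod1), beside 11.1% of all genes, 802 of the 11386 being called higher.

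Outside the cell, the propeptide protease Bmp1 stood at 74.9 ± 6.11 RPKM in shCTL against 87.3 ± 19.0 in shHSF1, and its enhancers Pcolce and Pcolce2 at 136 ± 22.3 and 177 ± 58.4, and at 54.9 ± 20.4 and 37.4 ± 19.3 RPKM. All 3 overlapped between the groups, although Pcolce2 was lower in each pair, and it passed without both replicate 1 libraries (log2 difference −0.45, SE 0.092, limma adjusted p = 0.0384). The lysyl oxidase Loxl3 stood at 25.3, 15.3 and 10.98 RPKM in shCTL, compared with 10.0, 7.46 and 6.64 RPKM in shHSF1. It was lower in each pair, and the groups did not overlap (log2 difference −0.99, SE 0.32, limma adjusted p = 0.319). Loxl3 passed without both replicate 1 libraries (−0.84, SE 0.17, limma adjusted p = 0.0383). Loxl4 (37.6 ± 8.30 and 38.8 ± 2.48 RPKM) and the transglutaminase Tgm2 (53.9 ± 25.7 and 42.7 ± 7.55) overlapped between the groups. Lox, Loxl1 and Loxl2 were under the limit.

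None of the 10 tested partners of collagen in the matrix passed over the 6 libraries. Postn (periostin), which binds type I collagen, stood at 0.197, 1.87 and 2.68 RPKM in shCTL, compared with 13.7, 9.52 and 9.38 RPKM in shHSF1, without overlap (log2 difference 2.69, SE 0.56, limma adjusted p = 0.178). Sparc, which binds type I and type IV collagens, stood at 78.3, 99.8 and 119 RPKM in shCTL, compared with 102, 205 and 219 RPKM in shHSF1, with an overlap through the library labelled shHSF1 replicate 1 (log2 difference 0.76, SE 0.32, limma adjusted p = 0.447). Both Postn and Sparc passed without both replicate 1 libraries, with log2 differences of 1.86 and 0.95 (limma adjusted p = 0.00749 and 0.0134). Hspg2 (perlecan), the heparan sulfate proteoglycan that shares the basement membrane with type IV collagen, stood at 59.8, 43.4 and 45.5 RPKM in shCTL, compared with 39.2, 28.7 and 26.5 RPKM in shHSF1. It was lower in each pair and its groups did not overlap, the other way from Col4a1 and Col4a2 (log2 difference −0.65, SE 0.20, limma adjusted p = 0.302). Hspg2 passed without both replicate 1 libraries (−0.68, SE 0.092, limma adjusted p = 0.0182). The other partners named by the rule were the fibronectin gene Fn1 at 693 ± 244 and 531 ± 198 RPKM, the laminin chain gene Lamc1 at 117 ± 6.59 and 130 ± 15.9, and the nidogen gene Nid1 at 0.564 ± 0.193 and 0.774 ± 0.201. Among receptors, the integrin subunit Itgb1 stood at 328 ± 34.8 and 393 ± 31.3 RPKM without overlap, and Itga2 (16.8 ± 8.43 and 19.9 ± 7.25) and the collagen-binding kinase Ddr1 (17.6 ± 4.76 and 24.8 ± 8.17) overlapped.

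**Figure D5:**
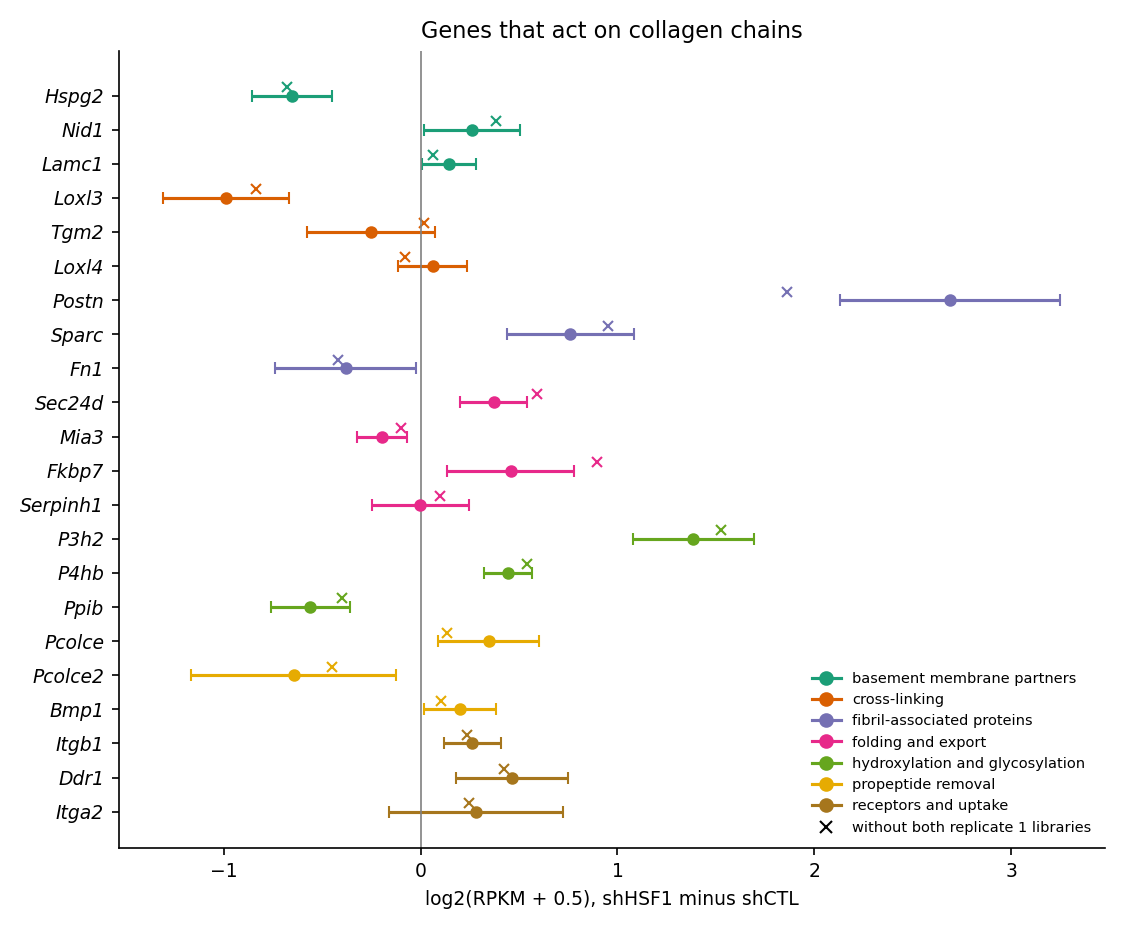
Log2 difference (shHSF1 minus shCTL) of 22 genes that act on collagen chains, with bars for the standard error over 6 libraries and crosses for the value without both replicate 1 libraries, coloured by role. Postn (2.69) and P3h2 (1.39) lie highest and Loxl3 (−0.99) and Hspg2 (−0.65) are among the lowest, and Serpinh1 lies at −0.0018.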

How the data were processed

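Libraries of polyadenylated RNA (KAPA mRNA HyperPrep, per the labels' protocols) came from cultured 4T1 cells, 3 with shCTL and 3 with shHSF1, grouped and numbered by their titles. STAR, featureCounts and the build mm10 are named in the submitters' processing notes; the sources used here do not give versions, strand setting or the handling of shared reads. The authors deposited RPKM per gene. RPKM times gene length gave whole multiples of 1 read for 100% of values (tolerance 0.001), from which read totals were taken. All 6 value columns matched a sample, and 0 were left over.

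Values were taken as log2(RPKM + 0.5), which understates the change of low genes, and limma 3.58.1 (R 4.3.3) tested the 11386 genes that had at least 0.5 RPKM in 3 libraries (variance trend, Benjamini-Hochberg over all genes tested, threshold 0.05). The code was tested on simulated data. Collagen genes were found by symbol and put in classes by type; the members, lists and alternatives were chosen with earlier results of these data known. Values were given for the 6 most abundant chains, expressed type IV chains, chains with an unadjusted p under 0.05, and up to 3 genes of each list with the smallest p, with Serpinh1; further chains and genes were named after their values were seen. Alternatives were other pseudocounts (0.1 and 1), filters and scalings, a replicate block, voom on the whole reads, and libraries left out. Across genes, the deviations of same-numbered libraries from their group means had correlations of 0.582, 0.181 and 0.679. All were above 0.1, so the numbers were taken as pairs. However, shCTL replicate 2 correlated more with shHSF1 replicate 3 (0.509), and shHSF1 replicate 2 more with shCTL replicate 3 (0.241). The data thus do not tell replicates 2 and 3 apart as pairs. With replicate 1 apart in both groups, replicates 2 and 3 were above 0.1 in either matching, so this check separates replicate 1 only. For replicates 2 and 3 the pairs rest on the numbers in the titles. Promoter sequences are RefSeq's (35 of 44 collagen genes matched). Python 3.11.15, pandas 2.3.3, numpy 2.4.6 and matplotlib 3.10.9 were used.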

Additional observations from a re-analysis of the deposited data

How the results depend on the processing

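No collagen chain was called by limma over the 6 libraries, under either other pseudocount, either other filter, either other scaling, the replicate block, voom, or any single library left out (0 in each, with 3 chains at an unadjusted p under 0.05 over the 6 libraries). Without both replicate 1 libraries 2 chains were called, 13 of the pathway genes, 1262 of all genes, and Hsf1 (−0.46). The count over all genes was 3, and became 18 with no filter, 20 with the replicate block, 11 with voom, and 0 to 8 with each library left out (0 without replicate 2 of either group, 1 without shHSF1 replicate 3, 5 without shCTL replicate 3, 8 without shHSF1 replicate 1). The −0.23 for fibrillar minus type IV came with no filter, where the scale understates the change of low chains. The difference of fibrillar from type IV chains stayed below 0 in every alternative run (−1.01 to −0.23), but it was 0.41 in the replicate 1 pair. It moved by less than the spread of the pairs (SD 0.732). That spread is larger than the difference itself (−0.47), so staying within it shows little. The replicate block and the filter on a mean of at least 1 RPKM could not move it, and gave −0.47 again. Signs reversed for genes near 0 without both replicate 1 libraries: Col5a1 (0.17), Col11a2 (−0.76), Col20a1 (−0.42), Tgm2 (0.019), Loxl4 (−0.082) and Serpinh1 (0.099; 0.0046 with quantile normalization). Col11a2 and Col20a1 also reversed with a pseudocount of 0.1 (−0.096 and −0.097) and with voom (−0.46 and −0.41). With each library left out, the values ran from −0.11 to 0.48 for Col6a1, −0.18 to 0.26 for Col5a1, −0.93 to 0.85 for Col11a2, −0.75 to 0.59 for Col20a1, −0.093 to 0.52 for Col12a1, −0.44 to 0.11 for Tgm2, −0.032 to 0.23 for Loxl4, −0.096 to 0.64 for Itga2 and −0.14 to 0.24 for Serpinh1. The cause of these shifts was not tested.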
